A study of Heliconius erato cyrbia and Heliconius erato demophoon with 32 samples.

Results

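The loci described here are transcribed stretches of the Z chromosome of Heliconius erato for which the reference holds no gene model. They were assembled from RNA reads of developing wings, and each has only an assembly ID that starts with MSTRG. Assembly numbers run in genome order, so a locus was placed on the Z chromosome when the nearest loci with a gene model on both sides had IDs of chromosome 21, which is the Z in this species. A stretch in the middle of the chromosome with 102 such loci was left out. This gave 337 unannotated Z loci out of the 24118 loci of the whole table, against 512 annotated Z loci. All 337 lie on the scaffold named Herato2101, with assembly numbers between 21478 and 22323. No sequence, position in bases or gene name of these loci was used here, so they are given by ID alone.

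Butterflies have a ZW sex chromosome system, in which males carry a pair of Z chromosomes and females a single Z and a W. An assembled transcript without a gene model can be a non-coding RNA, a protein-coding gene that the annotation lacks, an antisense transcript, or an exon or untranslated end that was not joined to its gene. In Heliconius, iridescent blue comes from layered ridges on the wing scales, and these ridges form while the scale cells develop in the pupa. The study mapped iridescence in crosses of this species and found the Z chromosome involved, which is the reason for asking whether transcripts of this chromosome differ between subspecies with and without iridescence.

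Wings came from captive H. e. cyrbia, which is iridescent blue, and H. e. demophoon, which is not. In each subspecies 4 animals were taken at 70% and 4 at 50% of pupal development. Each of these 16 animals gave a library of the main wing (the forewing with the posterior hindwing) and a library of the anterior hindwing, so that the 32 libraries fall into 8 groups of 4 animals. The cyrbia animals at 70% (animals 9 to 12) were all males, those at 50% were males 1 and 4 and females 2 and 3, the demophoon animals at 70% were male 15 and females 13, 14 and 16, and those at 50% were male 8 and females 5, 6 and 7. At 70%, subspecies and sex are therefore largely joined in the design.

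Library totals ran from 9330883 to 68986011 counts. The demophoon animal 6 had the shallowest main wing library. In all 16 animals, deviations from the group mean were positively correlated between the main wing and the anterior hindwing library. Across 11270 loci, which are not independent replicates, r was between 0.58 and 0.83. Across 103 of the unannotated Z loci, r ran from 0.17 in animal 4 to 0.91 in animals 14 and 16. The next lowest r across these loci was 0.46, in animal 10.

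All 337 loci had a count in at least 1 library, and 92 had a count in every library. The level of a locus is given as CPM, its counts scaled to a common library size that was adjusted by the TMM method. The median of the mean levels was 0.308 CPM, against 1.34 CPM for annotated Z loci and 0.312 CPM for unannotated loci of other chromosomes. Averaged over all libraries, 103 of the 337 loci reached 1 CPM, 27 reached 10 CPM and 1 reached 100 CPM. The 10 loci with the highest mean CPM took 47.8% of the counts of all 337. They were MSTRG.21830, MSTRG.21611, MSTRG.21598, MSTRG.21771, MSTRG.21509, MSTRG.21832, MSTRG.22304, MSTRG.21705, MSTRG.21609 and MSTRG.22296. CPM takes no account of transcript length, so levels of different loci, and this order, are in reads and not in transcripts.

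The summed level of the 337 loci was lower in cyrbia than in demophoon in each stage and wing region, and the animals of the subspecies did not overlap. In the main wing at 70% the sum was 1033 ± 57.7 CPM in cyrbia, against 1388 ± 125 CPM in demophoon (SD, n = 4 each), with ranges of 978 to 1105 and 1246 to 1509 CPM. At 50% it was 778 ± 97.1 CPM in cyrbia, against 1030 ± 34.7 CPM in demophoon (SD, n = 4 each), with ranges of 715 to 923 and 998 to 1077 CPM. The anterior hindwing at 70% gave 1042 ± 46.6 CPM in cyrbia, against 1388 ± 134 CPM in demophoon, and 768 ± 91.9 and 1130 ± 41.9 CPM at 50% (SD, n = 4 each). The lower sum in cyrbia did not rest on the 10 loci with the most counts. Without them, the other 327 loci summed to 472 ± 12.1 CPM in cyrbia and 649 ± 33.5 CPM in demophoon in the main wing at 70%, and to 429 ± 78.2 and 645 ± 8.09 CPM at 50% (SD, n = 4 each). These are descriptions without a test, and the sum is not given here for other sets of loci. Whether reads of both subspecies align equally well to these loci was not tested. At 70%, subspecies and sex are also largely joined, as all cyrbia animals were males. In whole wing tissue, fewer cells of a type and less RNA per cell cannot be told apart.

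**Figure D1:**
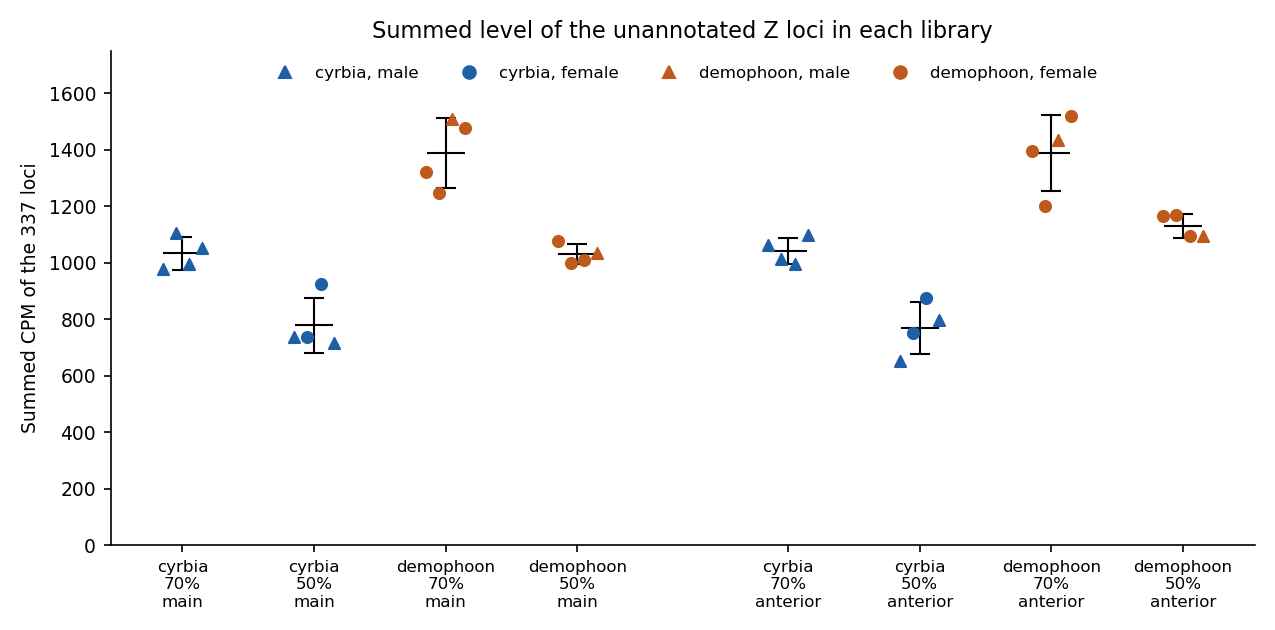
Summed CPM of the 337 unannotated Z loci (vertical axis) in each of the 32 libraries, by subspecies, stage and wing region (horizontal axis). Triangles are males and circles females, and black bars give the mean and SD of 4 animals. Within each stage and wing region every cyrbia library lies below every demophoon library.

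The first comparison asked which of these loci differed in the main wing between cyrbia and demophoon. Most of the loci that differed were lower in cyrbia, and many of these were at or near 0 there. At 70%, 43 of 194 tested loci passed the threshold of a false discovery rate (FDR) below 0.05, with 6 higher and 37 lower in cyrbia. This is 22.2% of the tested loci, where 9.17% of all tested loci of the genome passed (3.25% higher and 5.92% lower). At 50%, 50 of the 194 passed, with 12 higher and 38 lower in cyrbia, which is 25.8% against a background of 9.69% (4.33% higher and 5.36% lower). The remaining loci were too low to be tested in the main wing.

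The 102 unannotated Z loci of the stretch that was left out were called at shares close to these at 70%, with 13 of 59 tested loci (22%), and at 11 of 59 (18.6%) at 50%. Other sets had lower shares. At 70%, 7.19% of the annotated Z loci and 13.3% of the unannotated loci of other chromosomes passed, and at 50% the shares were 10.3% and 15.1%. The differences between these shares and that of the 337 loci were not tested, because loci of the same animals are not independent. The median log2 fold change of the 194 loci was −0.43 at 70% and −0.56 at 50%, against −0.20 and 0.02 in the stretch left out and 0.00 and 0.08 over all loci tested. Of the called loci, 40 at 70% and 43 at 50% had no overlap between the CPM of the animals of the subspecies (7.56% and 7.76% of all loci tested were called without overlap).

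**Figure D2:**
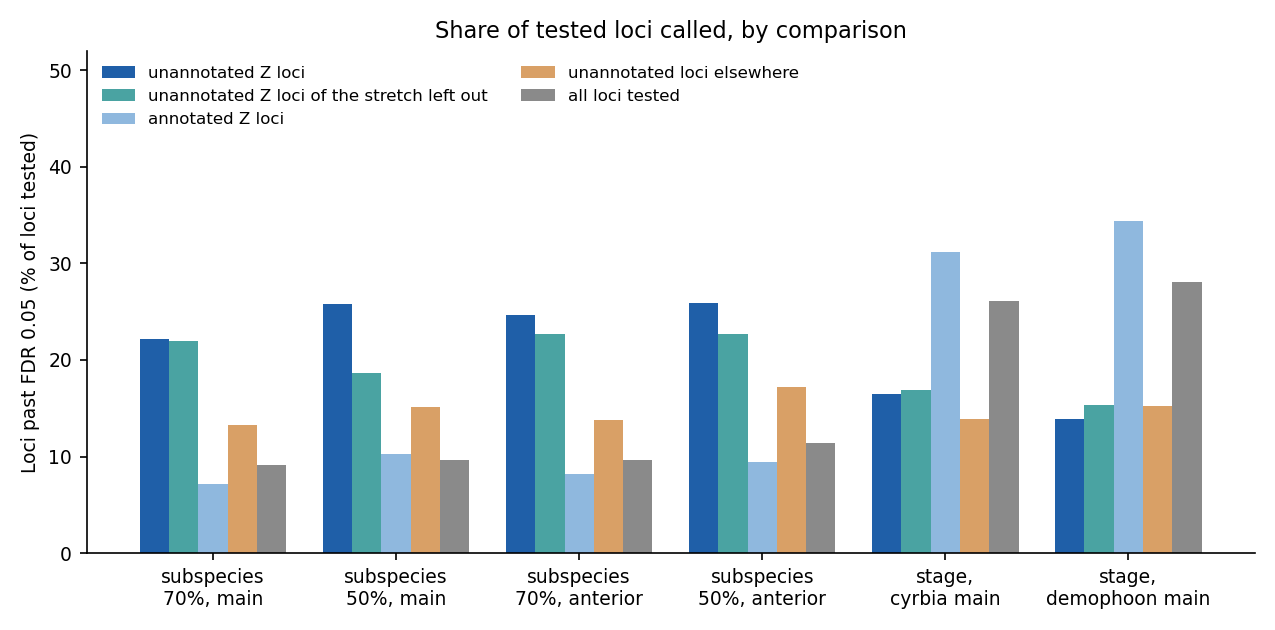
Share of tested loci past an FDR of 0.05 (vertical axis, percent) in 4 subspecies comparisons and 2 stage comparisons (horizontal axis). Bars are the 337 unannotated Z loci, those of the stretch left out, the annotated Z loci, the unannotated loci of other chromosomes and all loci tested. In the subspecies comparisons the 337 loci lie between 22.2% and 25.9% and those of the stretch left out between 18.6% and 22.7%, and in both stage comparisons both sets lie below all loci tested.

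In 21 of the 43 called loci at 70% and 27 of the 50 at 50%, the mean of a subspecies was below the level of 3 counts per library. With such means set to that level, the ratio of the means was at least 2-fold for 42 and 47 of the loci and at least 16-fold for 17 and 15. In the subspecies with the higher level, the called loci had a median of 5.14 CPM at 70% and 3.87 CPM at 50%. There were 34 loci called at both stages, which is 79.1% of the calls at 70% and 68% of those at 50%. These comparisons share no library, but both were contrasts of 1 fit to the 16 main wing libraries. The share of all tested loci called at both stages is not given here, so the overlap is not read as particular to these loci. Of the 34 loci, 4 were higher and 29 lower in cyrbia at both stages, and 1 changed direction.

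The sexes were unevenly spread over the subspecies. With sex as a covariate, 26 loci were called at 70%, with 3 higher and 23 lower in cyrbia, and 48 at 50%, with 12 higher and 36 lower. The log2 fold changes of named loci that lost their call at 70% in this way moved little. MSTRG.21628 had −7.88 with the covariate and −8.12 without it, and MSTRG.22138 had 2.72 and 2.79. All cyrbia animals at 70% were males, so the sex term was estimated from the other groups. A small change with it therefore cannot show the part of sex in the comparison at 70%. In the 5 females at 50% (2 cyrbia and 3 demophoon), 4 loci were called, with 2 higher and 2 lower, in a comparison of fewer animals that was added after the data were seen.

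**Figure D3:**
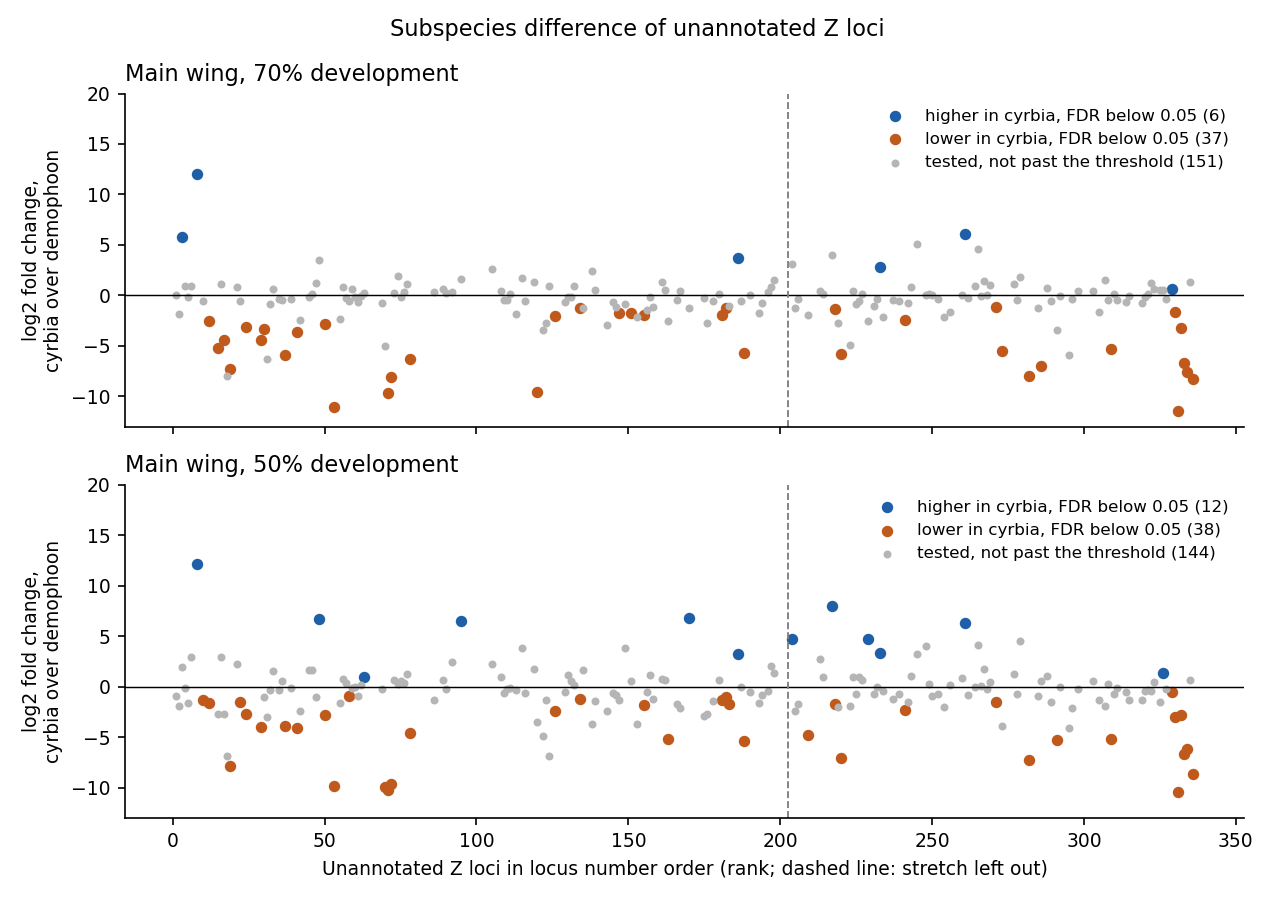
Log2 fold change of cyrbia over demophoon (vertical axis) of the 194 tested unannotated Z loci in the main wing, in the order of their locus numbers (horizontal axis, rank from 1 to 337), at 70% (top) and 50% (bottom). Called loci are coloured by direction, and the dashed line marks the stretch left out. Loci lower in cyrbia occur along the whole order, with a group of 6 at its far end at both stages.

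MSTRG.22314 had counts in demophoon alone. Whether reads of both subspecies align equally well to this locus, and to the other loci described below, was not tested. The 4 cyrbia libraries of the main wing had no count at 70%, against 7.84, 13.6, 12.7 and 7.04 CPM in demophoon. At 50% the cyrbia libraries again had none, against 5.58, 4.62, 4.50 and 5.08 CPM in demophoon. The locus had no count in any of the 16 cyrbia libraries and 4986 counts in the 16 demophoon libraries. Computed against 3 counts per library, it was at least 84.7-fold lower in cyrbia at 70% and at least 57.5-fold lower at 50% (edgeR FDR 1.83e-05 and 3.38e-05). Such bounds cover counting error only.

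MSTRG.21525 and MSTRG.22112 had few counts in cyrbia. MSTRG.21525 had 0, 0.0651, 0.0633 and 0.0893 CPM in cyrbia at 70%, against 11.6, 12.1, 12.9 and 5.23 CPM in demophoon, a log2 fold change of −7.30 (SE 0.75, edgeR FDR 4.91e-05). At 50% it had 0.0542 CPM in male 1 and 0 in the other cyrbia animals, against 4.63, 6.47, 2.59 and 2.57 CPM in demophoon (edgeR FDR 6.64e-05). With 2 counts in all 4 cyrbia libraries and 499 in those of demophoon, the summed level was 262-fold lower in cyrbia (95% counting interval 72.2 to 2170). Every demophoon animal was thus above every cyrbia animal at both stages. MSTRG.22112 had between 0.0633 and 0.151 CPM in cyrbia at 70%, against 3.87, 5.77, 7.21 and 5.16 CPM in demophoon (log2 fold change −5.82, SE 0.65, edgeR FDR 0.000104). At 50% it was at most 0.0568 CPM in cyrbia, against 4.07, 2.87, 5.15 and 5.16 CPM in demophoon (log2 fold change −7.08, SE 0.71, edgeR FDR 4.75e-05).

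Other loci with no or few counts in cyrbia varied widely among the demophoon animals. MSTRG.21591 had no count in any cyrbia library. In the demophoon main wing it had 12.7, 14.7, 1.69 and 1.17 CPM at 70% and 0.520, 5.03, 0.589 and 6.95 CPM at 50%, and its mean was at least 62.1-fold and 38.1-fold lower in cyrbia (edgeR FDR 0.0101 and 0.0139). The high and low animals were not the same in the anterior hindwing, where demophoon had 2.00, 1.38, 18.4 and 1.72 CPM at 70%. Animal 15, lowest but one in the main wing, was thus the highest there.

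MSTRG.21627 and MSTRG.22223 shared a pattern among animals. In demophoon at 70% MSTRG.21627 had 6.87, 15.1, 9.08 and 7.57 CPM, against 0.0326 CPM in cyrbia animal 10 and 0 in the others. In demophoon at 50% it had 4.35 and 13.0 CPM in animals 5 and 7, but 0 and 0.130 CPM in animals 6 and 8, and no cyrbia animal had a count. MSTRG.22223 had 4.68 and 6.45 CPM in the same animals 5 and 7 and 0 and 0.0518 CPM in animals 6 and 8. The anterior hindwing had the same animals high and low for both loci. The subspecies comparison passed at 70% (edgeR FDR 0.00826 for MSTRG.21627 and 0.00356 for MSTRG.22223) and at 50% (0.00939 and 0.00617), where the subspecies overlapped.

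MSTRG.21628 and MSTRG.21705 differed widely among the demophoon animals at 70%. MSTRG.21628 had at most 0.130 CPM in cyrbia at 70%, against 62.5, 0.224, 0.237 and 14.2 CPM in demophoon (edgeR FDR 0.0201), and without animal 13 its log2 fold change was −6.15, against −8.12. Its call did not hold once animal 9, 10, 11 or 12 was omitted (edgeR FDR values of 0.0523, 0.0510, 0.0574 and 0.0617) or with sex as a covariate (0.133). Its call at 50% (edgeR FDR 0.0301) was lost when animal 1, 2, 3, 4, 7 or 8 was left out (0.0619, 0.0561, 0.0643, 0.0554, 0.0570 and 0.0615). MSTRG.21705 had at most 0.285 CPM in cyrbia at 70%, against 120, 0.321, 136 and 269 CPM in demophoon (log2 fold change −9.53, SE 1.49, edgeR FDR 0.00141, and −8.92 without animal 16). Animal 14 thus had a level close to that of cyrbia, also in the anterior hindwing, where demophoon had 142, 0.0798, 71.5 and 269 CPM.

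**Figure D4:**
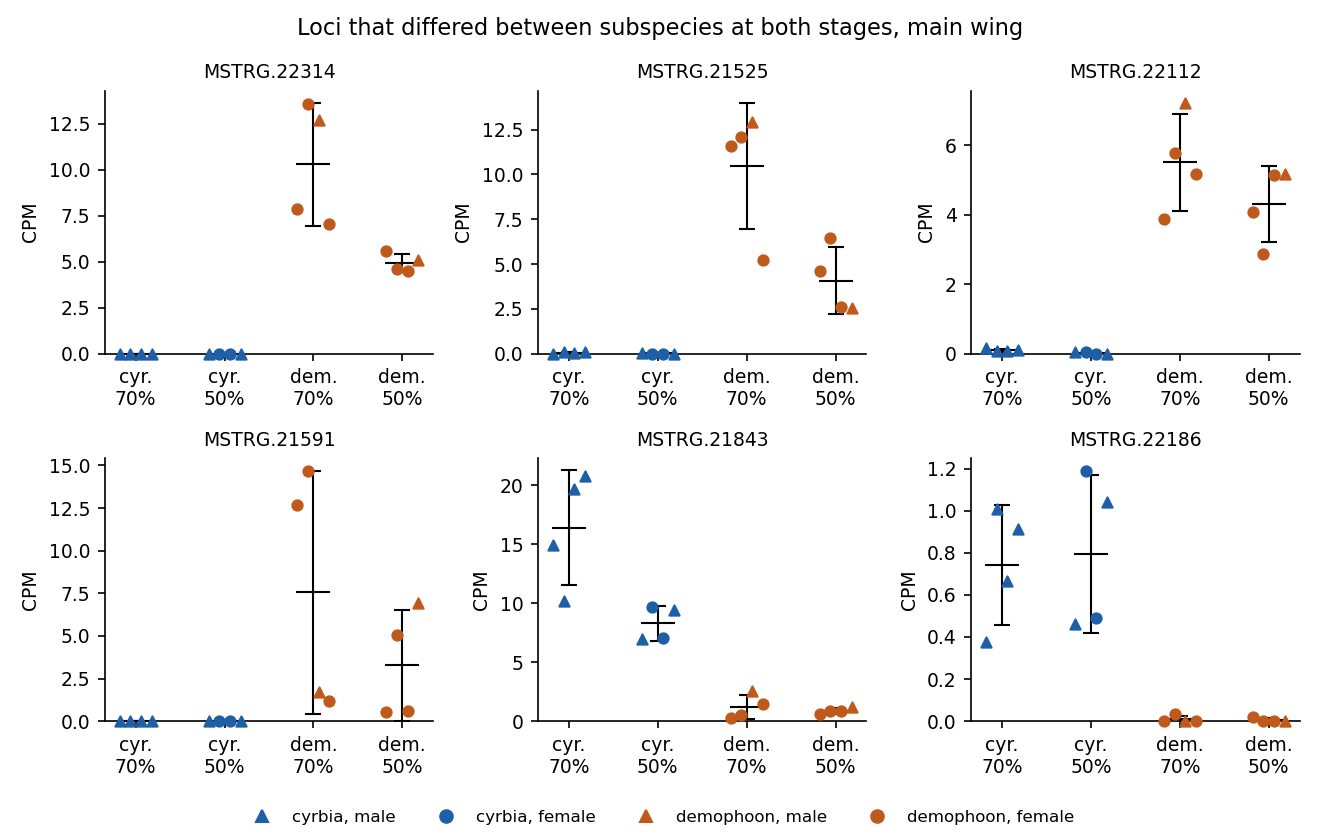
CPM in the main wing (vertical axes) of 6 unannotated Z loci called at both stages, by subspecies and stage (horizontal axes; cyr., cyrbia; dem., demophoon). Triangles are males and circles females, and black bars give the mean and SD of 4 animals. MSTRG.22314 and MSTRG.21591 are at 0 in every cyrbia library, while MSTRG.21843 and MSTRG.22186 are higher in every cyrbia animal than in any demophoon animal.

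Of the last 9 loci of the chromosome order, 6 were called lower in cyrbia at both stages. These loci were looked at together after their values had been seen, and they were not tested as a group. These were MSTRG.22314, given above, MSTRG.22309, MSTRG.22317, MSTRG.22318, MSTRG.22319 and MSTRG.22322. MSTRG.22309 had 12.1, 8.83, 6.11 and 7.48 CPM in cyrbia at 70%, against 25.5, 27.9, 29.3 and 27.4 CPM in demophoon (log2 fold change −1.66, SE 0.34, edgeR FDR 0.00714). At 50% it had 5.04, 4.37, 5.86 and 1.22 CPM in cyrbia, against 34.2, 30.4, 33.5 and 33.3 CPM in demophoon (log2 fold change −2.98, SE 0.36, edgeR FDR 0.000196). The demophoon animals had nearly equal levels and all lay above the cyrbia animals.

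The other loci of this group were low. MSTRG.22317 had at most 0.456 CPM in cyrbia at 70%, against 3.82, 4.01, 4.63 and 1.74 CPM in demophoon (log2 fold change −3.20, SE 0.51, edgeR FDR 0.00151). MSTRG.22318 had no count in cyrbia and at most 0.662 CPM in the main wing of demophoon (at least 3.18-fold lower at 70% and 4.46-fold at 50%, edgeR FDR 0.0243 and 0.0200). MSTRG.22319 had no count in cyrbia at 70% and between 0.142 and 1.28 CPM in demophoon, and was at least 5.55-fold lower (edgeR FDR 0.00509). MSTRG.22322 had no count in cyrbia main wings and between 0 and 2.79 CPM in demophoon ones (edgeR FDR 0.0237 at 70% and 0.0173 at 50%). Its call at 70% did not hold once animal 12 or 14 was omitted (edgeR FDR values of 0.0535 and 0.0513) or with sex as a covariate (0.0699). The remaining loci of these 9 behaved otherwise, as MSTRG.22321 was tested and not called, MSTRG.22323 was too low to be tested, and MSTRG.22304 differed in opposite directions, as described below. The annotated locus MSTRG.22320, between MSTRG.22319 and MSTRG.22322, was also lower in cyrbia at both stages (log2 fold change −1.09 at 70% and −1.34 at 50%).

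Fewer loci were higher in cyrbia. MSTRG.21843 was higher at both stages. It had 14.9, 10.2, 19.7 and 20.8 CPM in cyrbia at 70%, against 0.254, 0.545, 2.55 and 1.46 CPM in demophoon (log2 fold change 3.75, SE 0.53, edgeR FDR 0.000661, and 4.44 without animal 15). At 50% it had 6.99, 9.71, 7.07 and 9.44 CPM in cyrbia, against 0.632, 0.821, 0.824 and 1.17 CPM in demophoon (log2 fold change 3.27, SE 0.53, edgeR FDR 0.00164). The call at 50% was also made in the females alone (edgeR FDR 0.0398), and the calls at both stages held with sex as a covariate and with any animal left out.

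MSTRG.22186 and MSTRG.22138 were also higher in cyrbia at both stages, at low levels. MSTRG.22186 had 0.377, 1.01, 0.664 and 0.915 CPM in cyrbia at 70%, against 0.0321 CPM in demophoon animal 14 and 0 in the others (119-fold higher in the summed counts, 95% counting interval 20.9 to 4758, edgeR FDR 0.00242). At 50% it had 0.460, 1.19, 0.490 and 1.04 CPM in cyrbia, against 0.0186 CPM in demophoon animal 5 and 0 in the others (104-fold, 18.2 to 4136, edgeR FDR 0.00216). MSTRG.22138 had between 0.290 and 1.27 CPM in cyrbia at 70%, against 0.0592 to 0.160 CPM in demophoon (log2 fold change 2.79, SE 0.73, edgeR FDR 0.0270). This call did not hold once animal 10, 11, 13, 14, 15 or 16 was omitted (edgeR FDR values of 0.0751, 0.0665, 0.0731, 0.0561, 0.0896 and 0.0501) or with sex as a covariate (0.129). MSTRG.21505, the other locus higher at both stages, had 15.2, 16.9, 14.0 and 15.3 CPM in cyrbia at 70% and no count in demophoon. At 50% it had 0, 41.8, 21.9 and 0 CPM in cyrbia and no count in demophoon, so the subspecies overlapped. Its calls (edgeR FDR 0.0440 at 70% and 0.0446 at 50%) each ended without any of 10 single animals, with an edgeR FDR of up to 0.0950 and 0.0932.

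Several loci were called higher in cyrbia at only 1 stage of the main wing. In the anterior hindwing, MSTRG.21583 was called higher in cyrbia at 70%, and MSTRG.22089 at both stages. At 70% MSTRG.21482 had 0.679, 0.912, 2.40 and 2.41 CPM in cyrbia, against 0 to 0.0641 CPM in demophoon (edgeR FDR 0.0133, and 0.0557 with sex as a covariate). At 50% MSTRG.21583 and MSTRG.21665 had counts in every cyrbia main wing, at means of 0.364 and 0.331 CPM, and none in demophoon. They were at least 2.75-fold and 2.50-fold above the level of 3 counts per library (edgeR FDR 0.00988 and 0.00767). MSTRG.22089 and MSTRG.22132 were called higher at 50% too (edgeR FDR 0.0418 and 0.0430). The first call ended without any 1 of the 8 animals of that stage and the second without any of these but animal 2, with an edgeR FDR of up to 0.111 and 0.115. Of the animals at 70%, leaving out animal 10, 11, 12 or 16 also ended the first call (edgeR FDR values of 0.0543, 0.0543, 0.0539 and 0.052). Leaving out animal 14 ended the second (edgeR FDR 0.0533). The call of MSTRG.22132 also ended with sex as a covariate (edgeR FDR 0.0688).

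Of the most abundant loci, MSTRG.21832 was lower in cyrbia at both stages. It had 25.5, 40.7, 13.1 and 15.0 CPM in cyrbia at 70%, against 87.6, 88.8, 128 and 61.7 CPM in demophoon (log2 fold change −1.95, SE 0.33, edgeR FDR 0.00211). At 50% it had 7.04, 6.64, 4.15 and 5.08 CPM in cyrbia, against 13.6, 13.9, 15.2 and 14.3 CPM in demophoon (log2 fold change −1.30, SE 0.32, edgeR FDR 0.0201, and 0.0570 without animal 3). MSTRG.21509 had 17.0 ± 6.31 CPM in cyrbia, against 24.8 ± 5.39 CPM in demophoon at 70% (SD, n = 4 each), a difference that did not pass (edgeR FDR 0.262). At 50% it was lower in cyrbia, with 31.4, 46.8, 49.4 and 23.3 CPM, against 103, 91.7, 80.3 and 99.7 CPM in demophoon (log2 fold change −1.30, SE 0.28, edgeR FDR 0.00989).

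MSTRG.22296 was higher in cyrbia at 50%, with 9.29, 12.6, 12.5 and 10.8 CPM, against 4.22, 5.54, 4.47 and 3.34 CPM in demophoon (log2 fold change 1.38, SE 0.21, edgeR FDR 0.00120). At 70% its difference did not pass (log2 fold change 0.55, SE 0.20, edgeR FDR 0.109). MSTRG.21611 was called higher in cyrbia at 50% (edgeR FDR 0.0349, log2 fold change 0.92, SE 0.26), and this call did not hold once animal 3, 4, 5, 6, 7 or 8 was omitted (edgeR FDR values of 0.104, 0.0618, 0.0873, 0.0658, 0.0808 and 0.0854). It was also lost with only the 8 libraries of that stage (edgeR FDR 0.0931) and with the regions summed per animal (log2 fold change 0.62, edgeR FDR 0.107). The abundant loci MSTRG.21830, MSTRG.21598, MSTRG.21771 and MSTRG.21609 did not pass in either subspecies comparison of the main wing.

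MSTRG.22304 was the locus called in opposite directions at the stages of the main wing. At 70% it was higher in cyrbia, with 42.6, 41.0, 48.6 and 54.7 CPM, against 27.7, 30.0, 33.7 and 28.8 CPM in demophoon (log2 fold change 0.65, SE 0.15, edgeR FDR 0.0155). At 50% it was lower in cyrbia, with 21.6, 20.3, 30.6 and 22.3 CPM, against 39.4, 33.7, 35.9 and 32.4 CPM in demophoon (log2 fold change −0.57, SE 0.15, edgeR FDR 0.0296). The subspecies did not overlap at either stage. The call at 70% did not hold once animal 12 or 13 was omitted (edgeR FDR values of 0.0561 and 0.0527) or with sex as a covariate (an edgeR FDR that rounds to 0.05, log2 fold change 0.69), and that at 50% without animal 1, 2, 4, 5, 6 or 7 (0.0799, 0.0760, 0.0662, 0.0800, 0.0517 and 0.0665), with only the 8 libraries of that stage (0.0715) and with no filter on low counts (0.0539). The interaction of subspecies and stage was 1.21 on the log2 scale in the main wing (SE 0.21, edgeR FDR 0.0572) and 1.22 in the anterior hindwing of the same animals (SE 0.21, edgeR FDR 0.0377).

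In the anterior hindwing the subspecies differed at a like share of loci. At 70%, 55 of 224 tested loci were called, with 15 higher and 40 lower in cyrbia (24.6%, against a background of 9.64%, with 3.46% higher and 6.18% lower). At 50%, 58 were called, with 13 higher and 45 lower in cyrbia (25.9%, against 11.4%, with 4.76% higher and 6.61% lower). In the stretch left out, 22.7% were called at each stage. Both regions called 38 loci at 70%, which is 88.4% of the main wing calls and 69.1% of the anterior hindwing calls. At 50% they shared 43 loci, which is 86% and 74.1%. These are the same animals, so the anterior hindwing is a second measure of each animal and not a second sample of the subspecies. The share of all tested loci called in both regions is not given here.

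Over the 4 subspecies comparisons, 28 loci were called in every one, for which no share of all loci is given here. Of these, 4 were higher in cyrbia and 23 lower, and the remaining locus was MSTRG.22304. A further 10 loci were called in 3 of the comparisons, 23 in 2 and 18 in 1, while 107 loci were too low to be tested in any. Of those called in 2 comparisons, MSTRG.21761 was called in opposite directions in the anterior hindwing, higher in cyrbia at 70% and lower at 50%. It was named after its values had been seen. MSTRG.21512 and MSTRG.22146 are examples of loci that were lower throughout with modest differences between the animals of a group, and they were chosen after their values had been seen. MSTRG.21512 had 1.96, 3.78, 2.94 and 4.49 CPM in the cyrbia main wing at 70%, against 13.6, 19.3, 26.7 and 18.0 CPM in demophoon (log2 fold change −2.54, SE 0.36, edgeR FDR 0.000662). MSTRG.22146 had between 0.554 and 1.83 CPM in cyrbia at 70%, against 4.94 to 6.57 CPM in demophoon (log2 fold change −2.39, SE 0.34, edgeR FDR 0.000652).

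Loci on both sides of the stretch that was left out had like shares of calls. At 70%, 26 of 113 tested loci before it (23%) and 17 of 81 after it (21%) were called, and at 50% 29 (25.7%) and 21 (25.9%). The nearest annotated locus of a called locus had usually not been called. At 70% it was called in the same direction for 3 of the 43 loci and in the opposite direction for 2, while 32 had a nearest annotated locus that was tested and not called and 6 had one that was not tested. At 50% these counts were 4, 2, 34 and 10. Most annotated Z loci were not called either, as 23 of 320 tested (7.19%) were called at 70% and 33 of 320 (10.3%) at 50%. Whether the nearest annotated loci were called more or less often than these shares was not tested. Some annotated loci were also counted more than once, as MSTRG.22320 was nearest to both MSTRG.22319 and MSTRG.22322. Reads of adjacent or overlapping loci can be divided between them, and the use of strand in counting is not stated in the sources at hand.

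Some loci had counts in the libraries of only 1 subspecies. There were 10 in cyrbia alone and 13 in demophoon alone, and these loci are 2.97% and 3.86% of the 337, against 3.84% and 3.64% of the unannotated loci elsewhere and 3.91% and 3.91% of annotated Z loci. Of those in cyrbia alone 4 had at least 100 counts in total, and of those in demophoon alone 6 did. Besides MSTRG.22314 and MSTRG.21591, MSTRG.21524 had counts in all 16 demophoon libraries, with 376 in total. This locus was named after its values had been seen.

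The second comparison asked how the loci changed between 50% and 70% development. In cyrbia 32 of 194 loci differed between the stages, with 18 higher and 14 lower at 70%, which is 16.5% against 26.1% of all loci tested (12.3% higher and 13.7% lower). In demophoon 27 differed, with 17 higher and 10 lower at 70%, which is 13.9% against 28.1% (15% higher and 13.1% lower). Annotated Z loci were called at 31.2% and 34.4%, unannotated loci elsewhere at 13.9% and 15.2%, and the unannotated Z loci of the stretch left out at 16.9% and 15.3%. The differences between these shares were not tested. Without animal 8, 17 loci were called in demophoon, with 11 higher and 6 lower. In cyrbia, stage goes with sex, as the animals at 70% were all males. With sex as a covariate, 24 loci were called in cyrbia, with 16 higher and 8 lower at 70%.

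The stage comparisons of the subspecies share no library, but both were contrasts of 1 fit. The share of all tested loci called in both is not given here. In both, 15 of the unannotated Z loci were called, which is 46.9% of the cyrbia calls and 55.6% of the demophoon calls. Of these, 9 were higher and 6 lower at 70% in both subspecies, and none went in opposite directions. MSTRG.21609 showed the clearest rise among the abundant loci. In cyrbia it had 66.4, 92.3, 53.3 and 56.5 CPM at 70%, against 0.921, 1.42, 2.19 and 0.357 CPM at 50% (edgeR FDR 4.80e-07, log2 fold change of 5.77 with an SE of 0.47). In demophoon it had 52.7, 87.2, 79.7 and 57.0 CPM at 70%, against 0.948, 1.85, 1.09 and 0.907 CPM at 50% (edgeR FDR 4.14e-07, log2 fold change of 5.92 with an SE of 0.47). Its levels in the subspecies overlapped at both stages.

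MSTRG.22296 and MSTRG.21832 also rose in both subspecies. MSTRG.22296 had 53.7, 51.3, 57.5 and 78.2 CPM at 70% in cyrbia, above the values at 50% given earlier (log2 fold change 2.42, SE 0.22, edgeR FDR 1.11e-06), and 43.7, 29.8, 52.4 and 39.8 CPM at 70% in demophoon (log2 fold change 3.25, SE 0.23, edgeR FDR 9.79e-08). MSTRG.21832 changed by 2.04 in cyrbia (SE 0.33, edgeR FDR 0.000281) and by 2.69 in demophoon (SE 0.33, edgeR FDR 2.53e-05) on the log2 scale. MSTRG.21611 changed by 1.98 (SE 0.26, edgeR FDR 4.72e-05) and 2.66 (SE 0.27, edgeR FDR 3.53e-06), and the less abundant MSTRG.22256 by 2.98 (SE 0.51, edgeR FDR 0.000461) and 3.12 (SE 0.52, edgeR FDR 0.000342). These loci were higher in every animal at 70% than in any animal of the same subspecies at 50%.

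Fewer loci fell in both subspecies. MSTRG.21563 had between 0 and 0.158 CPM at 70% in cyrbia, against 15.7, 3.97, 2.71 and 3.97 CPM at 50% (edgeR FDR 8.76e-05, log2 fold change of −5.70 with an SE of 0.80, and −4.82 without animal 1). In demophoon it had between 0 and 0.252 CPM at 70%, against 8.85, 9.86, 6.06 and 8.37 CPM at 50% (edgeR FDR 7.16e-05, log2 fold change of −5.67 with an SE of 0.79). MSTRG.21509 fell by 1.91 in demophoon (SE 0.29, edgeR FDR 0.000137) and by 1.14 in cyrbia (SE 0.28, edgeR FDR 0.00707) on the log2 scale, and in cyrbia the stages overlapped. MSTRG.21743 fell by 1.81 in cyrbia (SE 0.36, edgeR FDR 0.00160) and by 1.72 in demophoon (SE 0.35, edgeR FDR 0.00195).

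**Figure D5:**
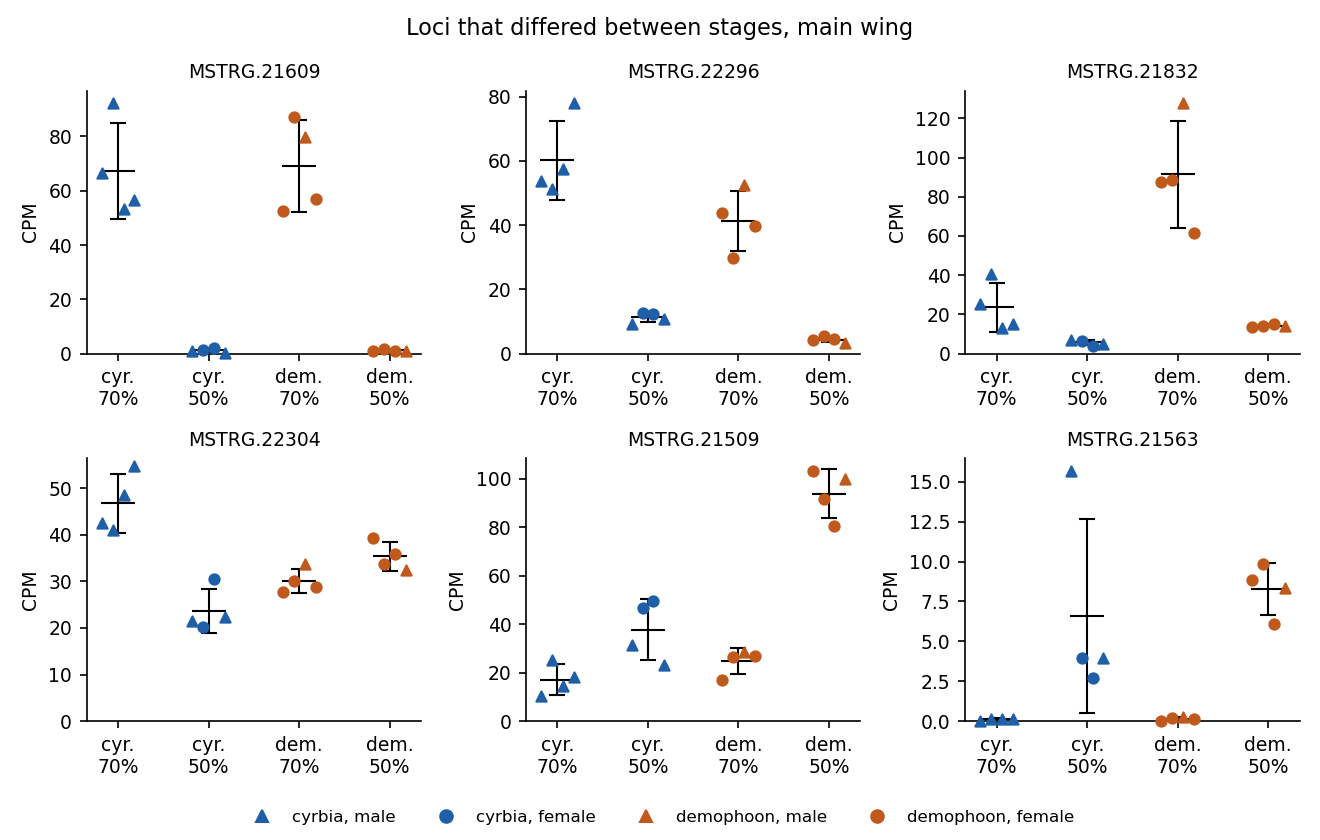
CPM in the main wing (vertical axes) of 6 unannotated Z loci called between stages in at least 1 subspecies, by subspecies and stage (horizontal axes; cyr., cyrbia; dem., demophoon). Triangles are males and circles females, and black bars give the mean and SD of 4 animals. MSTRG.21609 is below 3 CPM at 50% and above 50 CPM at 70% in both subspecies, and MSTRG.22304 was called between stages in cyrbia (log2 fold change 0.99) and not in demophoon (−0.23).

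The stage comparison named further loci in 1 subspecies. In cyrbia MSTRG.21807 and MSTRG.22091 were higher at 70% (log2 fold change 3.01 and 2.44, edgeR FDR 0.00846 and 0.0260), and MSTRG.21807 was at 2.41 without animal 9. The call of MSTRG.22091 did not hold once animal 1, 2 or 12 was omitted (edgeR FDR values of 0.0505, 0.0634 and 0.0770) or with sex as a covariate (0.0670), and in the anterior hindwing the log2 fold change was 1.01 (0.208). MSTRG.22132 had 4.06, 0.397, 2.03 and 0.822 CPM in cyrbia at 50% and no count at 70% (edgeR FDR 0.00252). MSTRG.22161 had no count at 70% either, against 0.135, 3.21, 32.6 and 0.608 CPM at 50%, and its call (edgeR FDR 0.0393) did not hold once animal 2, 3, 9, 10, 11 or 12 was omitted (edgeR FDR values of 0.0555, 0.0842, 0.0691, 0.0704, 0.0740 and 0.0795) or with sex as a covariate (0.103). The fall of MSTRG.21781 (log2 fold change −1.38, edgeR FDR 0.0425) was lost without any of 12 of the 16 animals, with an edgeR FDR of up to 0.113, and with sex as a covariate (0.115).

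In demophoon MSTRG.21778 was higher at 70%, with 2.65, 1.44, 2.31 and 4.02 CPM, against 0.186, 0, 0.118 and 0 CPM at 50% (edgeR FDR 0.0201). That call did not hold once animal 6, 7 or 8 was omitted (edgeR FDR values of 0.0503, 0.0505 and 0.0548). MSTRG.22097 was lower, with at most 0.0641 CPM at 70%, against 0.427, 0.411, 1.00 and 0.726 CPM at 50% (edgeR FDR 0.00695, log2 fold change of −3.95 with an SE of 0.98). In the anterior hindwing its log2 fold change was −3.45 and did not pass (edgeR FDR 0.0657). The fall of MSTRG.21760 (edgeR FDR 0.0365) was lost without any 1 of the 8 demophoon animals, with an edgeR FDR of up to 0.117. It was also lost with DESeq2 (adjusted p of 0.0628) and with the regions summed per animal (log2 fold change −2.96, edgeR FDR 0.143).

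The interaction tests for a subspecies difference that changed with stage. No unannotated Z locus passed in the main wing with edgeR, where 0.0517% of all loci did. An unadjusted p below 0.05 was found for 18 loci, and DESeq2 called 6. The lowest p was that of MSTRG.22304 (4.47e-05, FDR 0.0572). In the anterior hindwing 3 loci passed with edgeR (0.188% of all loci did), MSTRG.22304, MSTRG.21832 and MSTRG.21761.

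With sex added to the group means of the main wing, 1 locus passed (0.0129% of all loci tested did) and 12 had an unadjusted p below 0.05. It was MSTRG.21505, lower in males (log2 fold change −11.55, edgeR FDR 0.00418). In the main wing of cyrbia at 50% it had 0 CPM in both males, against 41.8 and 21.9 CPM in the females, but in the anterior hindwing male 4 had 29.4 CPM and male 1 none. All 4 cyrbia males at 70% had it in both regions. The call was not made in the anterior hindwing (log2 fold change −1.04, edgeR FDR 0.985), with the regions summed per animal (−1.70, edgeR FDR 1) or with DESeq2 (−3.86, adjusted p of 1).

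Among the 103 loci with at least 1 CPM, the median log2 difference of males minus females was 0.16 in demophoon at 70%, −0.19 in cyrbia at 50% and 0.00 in demophoon at 50% in the main wing. In the anterior hindwing of the same groups it was 0.09, −0.11 and −0.08. The 266 annotated Z loci of that level had 0.04, 0.13 and 0.12 in the main wing. Unannotated loci of other chromosomes had 0.03, −0.24 and −0.05 there, and those of the stretch left out had 0.00, −0.17 and −0.12. Demophoon had 1 male at each stage, so these medians are descriptions.

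The last comparison set the main wing against the anterior hindwing within animals. No unannotated Z locus passed with edgeR in any of the 4 groups, where between 0.0985% and 0.367% of all loci did (0.252% in cyrbia at 70%, 0.186% in cyrbia at 50%, 0.367% in demophoon at 70% and 0.0985% in demophoon at 50%). An unadjusted p below 0.05 was found for 16 loci in cyrbia at 70%, 27 in cyrbia at 50%, 7 in demophoon at 70% and 12 in demophoon at 50%, and DESeq2 called 3, 4, 0 and 2. Of 1076 pairs of a locus and an animal with at least 100 counts in a region, 4 had 0 counts in the other region (0.372%). Of such pairs, 1.45% had 0 counts in the other region for unannotated loci elsewhere, 0.531% for the stretch left out, 0.107% for annotated Z loci and 0.0903% for annotated loci elsewhere. The 4 pairs were MSTRG.21633 in animal 3 (main wing 0 counts, anterior hindwing 140), MSTRG.21623 in animal 4 (481 and 0), MSTRG.21811 in animal 8 (0 and 123) and MSTRG.21505 in animal 4 (0 and 1468).

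Animals of the same group differed in whether some loci were on. For 39 loci, 1 animal had at least 1 CPM in both regions while another of the same subspecies and stage had at most 3 counts in each. These are 11.6% of the 337, against 11.8% in the stretch left out, 13.6% of unannotated loci elsewhere, 1.76% of annotated Z loci and 8.23% of all loci. MSTRG.21642, chosen after its values had been seen, is an example. In the main wing of demophoon at 70% it had 13.7, 3.27 and 18.5 CPM in animals 13, 14 and 15 and 0 in animal 16, and in the anterior hindwing 8.81, 2.71, 12.2 and 0 CPM in the same animals. In cyrbia at 70% it was at most 0.326 CPM, and it was called lower in cyrbia in each of the 4 subspecies comparisons.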

How the data were processed

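Per the labels, RNA was extracted with an RNeasy kit and libraries were made with a TruSeq v2 kit. The submitters' processing notes name Trimmomatic (v. 0.38), HISAT2 (v. 2.1.0), SAMtools (v. 1.9), StringTie (v. 1.3.5) and edgeR. The authors deposited raw counts per assembled locus, not normalised, as a table with a column for each of 32 libraries. StringTie derives such counts from coverage, so they are estimates, and reads shared by neighbouring loci may be split unevenly. The genome build and strand setting are not stated in the sources at hand. A gene table of another assembly (14137 genes) held none of the locus IDs.

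Counts were tested over all loci with edgeR (v. 4.0.16, R v. 4.3.3) by its quasi-likelihood F test with robust fitting, after TMM normalisation and the filterByExpr filter on low counts. P-values were adjusted by Benjamini-Hochberg, with a threshold of FDR below 0.05. Subspecies, stage and interaction were contrasts of group means, fitted apart to the 16 libraries of each wing region (15485 loci tested for main wings, 16457 for anterior hindwings). Sex was an added term. Regions were compared in all 32 libraries with the animal as a replicate block (18276 loci tested), since the labels give both regions of each animal. Subspecies, stage, interaction and sex tests set a difference against the spread between animals of a group. Region tests set the difference between regions of an animal against the spread of that difference among animals. Tests were first run on simulated data in which only well expressed loci were changed, so that run does not cover loci near 0.

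The 337 loci and the groupings used were chosen with earlier results of these data known. Loci were named when among the 10 with the highest mean CPM, among the 8 higher and 8 lower called loci without overlap in each subspecies comparison of the main wing with the largest fold changes (5 and 5 for stage), among the first 3 per direction for interaction, sex and region, or among the 5 largest called at both stages. Others are marked as chosen after their values were seen, or are listed in full for a count given in the text. Alternatives were DESeq2 (v. 1.42.0), its size factors, no filter, fits with fewer or summed libraries, sex as a covariate, no block, and each animal left out.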

Additional observations from a re-analysis of the deposited data

Results flagged for a closer look

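In 83 groups of 4 animals, a sample far from the others was looked for by its gap to the nearest sample as a share of the group's range, a measure that chance alone exceeds in about 1 in 20 groups, and 5 groups exceeded it. The summed level of the 337 loci in the main wing of cyrbia at 50% had such a sample, animal 3 with 923 CPM (share 0.889). MSTRG.21525 in the main wing of demophoon at 70% had a low animal 16, at 5.23 CPM with a group maximum of 12.9 CPM (0.831). MSTRG.21743 in the same group had a high animal 13, at 4.07 CPM with a minimum of 2.62 CPM (0.841). MSTRG.21563 in the main wing of cyrbia at 50% had a high animal 1, at 15.7 CPM with a minimum of 2.71 CPM (0.903). MSTRG.22161 in the same group had a high animal 3, at 32.6 CPM with a minimum of 0.135 CPM (0.905).

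In the anterior hindwing the subspecies difference of 3 loci changed with stage by the test of the interaction, given as the log2 difference at 70% minus that at 50%. It was −1.77 for MSTRG.21832 (SE 0.33, edgeR FDR 0.0497), 1.22 for MSTRG.22304 (SE 0.21, edgeR FDR 0.0377) and 2.77 for MSTRG.21761 (SE 0.46, edgeR FDR 0.0377). MSTRG.21761 had 13.1, 9.48, 14.6 and 13.7 CPM in the anterior hindwing of cyrbia at 70%, against 5.98, 7.63, 7.52 and 2.83 CPM in demophoon, and 12.0, 22.8, 10.6 and 20.7 CPM in cyrbia at 50%, against 35.3, 46.8, 59.1 and 66.4 CPM in demophoon. In the main wing the interaction did not pass for any of the 3 loci.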

How the results depend on the processing

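No result turned round under any alternative. The number of called loci moved by more than 1.5 times as follows. With DESeq2 it was 69 for subspecies in the main wing at 70%, 77 at 50%, 6 for the interaction, 2 for sex (MSTRG.21505 not among them), and for regions 3 in cyrbia at 70%, 4 in cyrbia at 50% and 2 in demophoon at 50%. With sex as a covariate it was 26 at 70% for main wings and 34 for anterior hindwings. In females only, chosen after seeing the data, it was 4 in each wing region at 50%. With the regions summed per animal it was 74 for subspecies at 70%, 2 for the interaction and 0 for sex, and with the anterior hindwing libraries 3 for the interaction and 0 for sex. With only the 8 main wing libraries of 50% it was 33, and with RLE size factors 1 for the interaction.

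With each animal left out in turn, counts ran from 33 to 49 (subspecies, main wing, 70%), 38 to 50 (main wing, 50%), 38 to 60 (anterior hindwing, 70%), 43 to 61 (anterior hindwing, 50%), 25 to 34 (stage, cyrbia), 17 to 28 (stage, demophoon), 0 to 1 (interaction), 1 to 1 (sex), 0 to 1 (regions, cyrbia at 70%) and 0 to 0 (other regions). The interaction count of 1 came without animal 3 or 14, and the region count of 1 without animal 13. Without the replicate block, 0 loci were called between regions in each of the 4 groups, as with it. DESeq2 called 31 loci higher and 16 lower at 70% in cyrbia, against 18 and 14 with edgeR. Of 68 results on named loci, 33 kept their call under every alternative. Without the filter on low counts, the calls of MSTRG.21505 (edgeR FDR 0.0829 at 70% and 0.0828 at 50%), MSTRG.21628 (0.0501, 50%), MSTRG.22138 (0.0518, 70%), MSTRG.22089 (0.0637, 50%), MSTRG.22132 (0.0631, 50%), MSTRG.22161 (0.0713, stage), MSTRG.21781 (0.0612, stage) and MSTRG.21760 (0.0724, stage) were lost, where more loci were tested. Levels near 3 counts per library, which is 0.132 CPM on average for the main wing of demophoon at 50%, cannot be told from 0.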
